A study of Drosophila melanogaster with 29 samples.

Results

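The comparison set 3 arrays of PC-depleted Drosophila S2 cells against the 3 arrays labelled PSC depletion, over every probe set that names a single gene and is no array control. These were 13647 of the 18952 probe sets, and the arrays were 6 of the 29 in the series, chosen by their labels. The series measured total RNA of S2 cells, an embryonic line with features of blood cells, on Affymetrix Drosophila arrays. It held 14 arrays of untreated cells (Mock) and 3 arrays after each of 5 depletions by RNA interference (dKDM2, dRING, PC, PH and PSC). For the arrays compared here the cells were treated for 4 days with double-stranded RNA against PC or PSC and carried no other alteration that the labels name. The Mock cells are labelled with no depletion, so both groups compared share an exposure to double-stranded RNA that Mock is not said to have had. The labels speak of biological replicates but name no cultures. The limma p-values measure only how far arrays spread within their groups, over all 29 arrays unless fewer are named. That spread may be technical.

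PC and PSC both belong to Polycomb repressive complex 1 (PRC1), which keeps developmental genes silent through cell division. PC carries the chromodomain that binds the Polycomb methyl mark on histone H3, and PSC is the RING finger partner of Sce (dRING in the labels) and compacts nucleosomes. A direct comparison of their depletions asks which transcripts differ between the loss of 1 subunit and the loss of another.

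The arrays labelled PSC did not show a lower Psc transcript. On the log2 scale Psc stood at 9.58, 9.75 and 9.29 on PC replicates 1, 2 and 3, and at 9.21, 9.51 and 8.67 on the arrays labelled PSC. All 6 values lay above the whole Mock range of 5.83 to 7.98, and the groups compared overlapped. The difference, PC minus PSC, was 0.41 with a 95% interval of -0.41 to 1.23 (limma adjusted p = 0.99). Every direction given for these arrays therefore rests on their label, and they are called the arrays labelled PSC.

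Pc, the target on the other side, stood at 3.76, 4.37 and 5.05 on the PC arrays and at 7.39, 7.25 and 8.77 on the arrays labelled PSC, against 6.60 ± 0.62 (SD, n = 14) in Mock. The groups did not overlap, and Pc was 10.6-fold lower on the PC arrays (log2 difference -3.41, SE 0.53, limma adjusted p = 0.000123). Sce, the ubiquitin ligase of the complex, lay at 7.96 to 7.99 on the PC arrays and at 8.15 to 8.40 on the arrays labelled PSC. Its difference was -0.33 (95% interval -1.38 to 0.72), which the test did not call. Among 9 measured genes of PRC1 and its partners Pc was the 1 gene called, against 3.93% of all genes tested. Among 8 genes of PRC2, which places that methyl mark, 0 were called by limma, with 0 at an unadjusted p under 0.05.

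Replicate 3 stood apart in both groups. Replicates 1 and 2 correlated at r = 0.999 for PC and 0.998 for PSC over the tested genes, whereas replicates 1 and 3 correlated at 0.981 and 0.976, and replicate 3 of PC correlated with replicate 3 of PSC at 0.982. The actin probe sets at the 5′ end lay below those at the 3′ end by 1.42, 1.53 and 4.20 (log2) on PC replicates 1, 2 and 3 and by 1.52, 1.80 and 4.67 on PSC replicates 1, 2 and 3, a difference used to judge how intact the RNA was. Between the groups this measure differed by 0.28 (exact permutation p = 0.6, two-sided, adjusted p = 0.8 over 4 controls), and 3 arrays against 3 allow no p under 0.1. The GAPDH probe sets gave 5′ minus 3′ values of -1.64, -1.70 and -3.80 for PC and -1.50, -1.43 and -2.61 for PSC, a difference of -0.53 (exact permutation p = 0.5, two-sided, adjusted p = 0.8 over 4 controls). Of 7 markers of plasmatocytes, the macrophage-like blood cells, 2 lay above 4 (log2) on all 6 arrays. Of the markers of muscle, fat body, crystal cells and the germ line, 0 did. The lamellocyte marker PPO3, 1 of 2 measured, did at 5.07 to 7.15 and was not called, and elav was the 1 neuronal marker that did.

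Of 11678 genes tested by limma, 459 were called between the groups (3.93%). 176 were higher after PC depletion (1.51%) and 283 were lower (2.42%), and 338 of the 459 differed at least 2-fold. The median size of the difference among called genes was 1.63 on the log2 scale, and the largest were 6.67 higher and 7.42 lower. The 3 PC arrays lay wholly to 1 side of the 3 arrays labelled PSC for 412 called genes, against 1955 of all genes tested (16.7%). The call tests the difference on these same arrays, so this separation largely follows from it and is no separate support. 99 called genes had no array above 4, and 61 differed by under 0.5, so part of the list lies close to the floor of the data at 2.27.

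With the replicate number as a block, in the 6 arrays alone, limma called 951 genes (8.14%), 472 higher (4.04%) and 479 lower (4.1%), and 246 of the 459 genes were among them in the same direction. The block called 1009 genes (8.64%) in 18 arrays with Mock 1 to 3 and all depletions, 467 higher (4.0%) and 542 lower (4.64%). The dKDM2 and PH arrays in that fit shared little of the replicate deviations. In 12 arrays with Mock 1 to 3 and the dRING, PC and PSC arrays the block called 2225 (19.1%), 1176 higher (10.1%) and 1049 lower (8.98%). Without replicate 1 of both groups 254 genes were called, without replicate 2 of both groups 250, and without replicate 3 of both groups 382, of which 129 were higher and 253 lower.

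**Figure D1:**
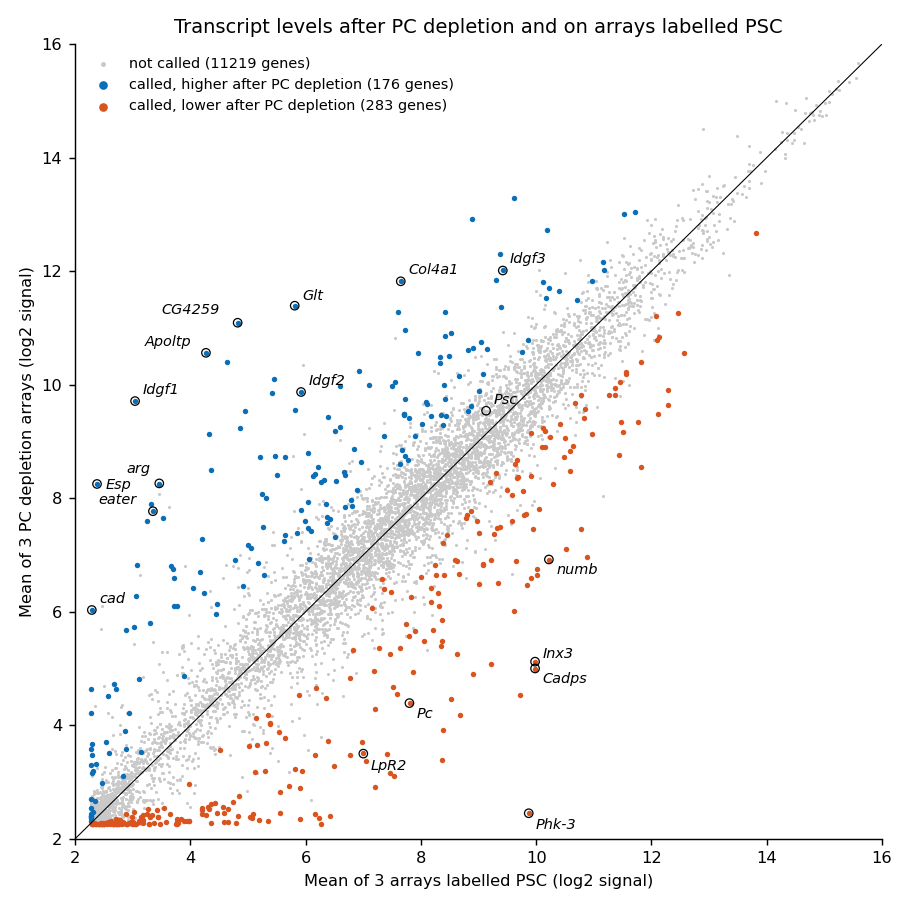
Mean log2 signal of each of 11678 genes on the 3 PC depletion arrays (vertical axis) against the 3 arrays labelled PSC (horizontal axis), with the line of equality. Coloured points are genes called by limma, 176 higher (blue) and 283 lower (orange) after PC depletion, and circles mark named genes.

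For each called gene the Mock mean was set beside both group means to see which lay nearer. Both groups can still depart from Mock, as in LpR2 (PC minus Mock 1.07, limma adjusted p = 2.08e-05, and PSC minus Mock 4.57, limma adjusted p = 3.87e-18). The share over all genes tested is not given here. Of the 283 genes lower after PC depletion, the Mock mean lay nearer the PC mean for 265 and nearer the PSC mean for 18. Of the 176 higher genes it lay nearer the PC mean for 110 and nearer the PSC mean for 66. The PC and PSC contrasts with Mock share the Mock arrays and are given side by side only.

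The largest differences in favour of PC depletion lay on either side of Mock. Idgf1, a secreted imaginal disc growth factor, stood at 9.64, 9.64 and 9.85 on the PC arrays and at 2.86, 2.74 and 3.51 on the arrays labelled PSC. The 3 PC values lay far above the Mock range of 2.95 to 3.64, whereas the PSC values lay in or just under it. Idgf1 was 102-fold higher after PC depletion (log2 difference 6.67, SE 0.24, limma adjusted p = 3.37e-16).

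Esp, a predicted sulfate transporter, stood at 8.37, 8.36 and 8.00 on the PC arrays against 2.43, 2.45 and 2.28 on the arrays labelled PSC. The PC arrays lay above the Mock range of 2.63 to 7.22 and the arrays labelled PSC under it (PSC minus Mock -2.06, limma adjusted p = 0.0773). Its log2 difference was 5.86 (SE 1.01, limma adjusted p = 0.000395).

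Other genes of the upper list stayed near Mock after PC depletion and were low on the arrays labelled PSC. Apoltp, the lipid transfer particle protein that loads lipids onto lipophorin, stood at 10.78, 10.75 and 10.14 on the PC arrays and at 3.42, 3.49 and 5.91 on the arrays labelled PSC. Mock ranged from 7.38 to 11.04 and covered all 3 PC values and no PSC value. The log2 difference of 6.29 (SE 0.95, limma adjusted p = 8.41e-05) was not called in the blocked fit of the 6 arrays (adjusted p = 0.0686).

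CG4259 stood at 11.02, 11.04 and 11.22 against 4.17, 4.36 and 5.93, with a Mock mean of 10.44, and differed by 6.27 (SE 0.91, limma adjusted p = 5.05e-05). CG14629 stood at 10.66, 10.64 and 9.88 against 4.71, 4.51 and 4.71, with a Mock mean of 10.30, and differed by 5.75 (SE 0.39, limma adjusted p = 1.06e-10). Both were low on every array labelled PSC alone.

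arg, the arginase that makes ornithine from arginine, stood at 8.17, 8.23 and 8.37 after PC depletion and at 3.37, 3.40 and 3.60 on the arrays labelled PSC, 27.8-fold apart (log2 difference 4.80, limma adjusted p = 9.14e-07). Oat, the ornithine aminotransferase that acts on its product, stood at 9.88, 10.06 and 10.37 against 4.89, 5.41 and 6.04, 25.2-fold apart (limma adjusted p = 5.78e-09). For both genes the PC arrays lay inside the Mock range and the arrays labelled PSC lay under it. The remaining genes of the 12 largest were Glt, CG33307, CG8051, CG3246 and fat-spondin, a secreted protein related to F-spondin, with log2 differences from 4.43 to 5.58.

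The largest differences the other way were mostly genes near their Mock level after PC depletion and high on the arrays labelled PSC. Phk-3, a small secreted protein related to insect chemosensory proteins, stood at 2.45, 2.50 and 2.40 on the PC arrays, near the floor, and at 10.95, 10.87 and 7.79 on the arrays labelled PSC. Replicate 3 labelled PSC was the lowest of that group and still above every Mock array (2.35 to 3.66). Phk-3 was at least 171-fold lower after PC depletion (log2 difference -7.42, SE 0.48, limma adjusted p = 3.37e-11) and was not called in the blocked fit of the 6 arrays (adjusted p = 0.0564). The SD was 1.80 on the arrays labelled PSC, whereas Mock (SD 0.35) and PC arrays (SD 0.05) near the floor lowered the pooled spread. A level near the floor understates a difference, so the order among genes with such levels is not set.

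Cadps, which primes dense-core vesicles for secretion, stood at 4.82, 4.49 and 5.69 against 9.64, 9.79 and 10.52 (log2 difference -4.99, SE 0.57, limma adjusted p = 1.33e-06). It was the 1 called gene of 20 measured neuronal genes, against 2.42% of all genes tested called lower, and their median difference was 0.00. Of the defining neuronal genes nSyb lay at the floor on all 6 arrays, whereas elav stood at 5.21 to 6.44 on them and was not called. Tsp66E, a tetraspanin of the cell membrane, stood at 3.19, 3.12 and 3.86 against 8.23, 8.24 and 8.61 (log2 difference -4.97, limma adjusted p = 9.81e-09). Inx3, an innexin of gap junctions, stood at 5.09, 5.20 and 5.07 against 10.27, 10.41 and 9.25 (log2 difference -4.86, limma adjusted p = 2.12e-08). In all 3 genes every array labelled PSC lay above the Mock range.

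bbg, a scaffold protein with PDZ domains, stood at 3.13, 2.86 and 3.51 against 7.11, 7.51 and 7.75 (log2 difference -4.29, SE 0.26, limma adjusted p = 1.39e-11). mrj, a DnaJ-type chaperone, stood at 3.31, 3.57 and 4.87 against 8.11, 8.04 and 8.99 (log2 difference -4.46, limma adjusted p = 1.40e-05). Ctl1, a choline transporter-like protein, differed by -4.13 (limma adjusted p = 9.09e-05) and was not called in the blocked fit of the 6 arrays (adjusted p = 0.0557).

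Of the other genes among the 12 lowest, CG8353, CG4269, CG9452 and CG42268 differed by -5.20 to -4.06. CG46491 differed by -4.30 (limma adjusted p = 0.0191), a call lost when any single array but PC replicate 3 was left out (highest adjusted p = 0.0689, without PC replicate 2).

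**Figure D2:**
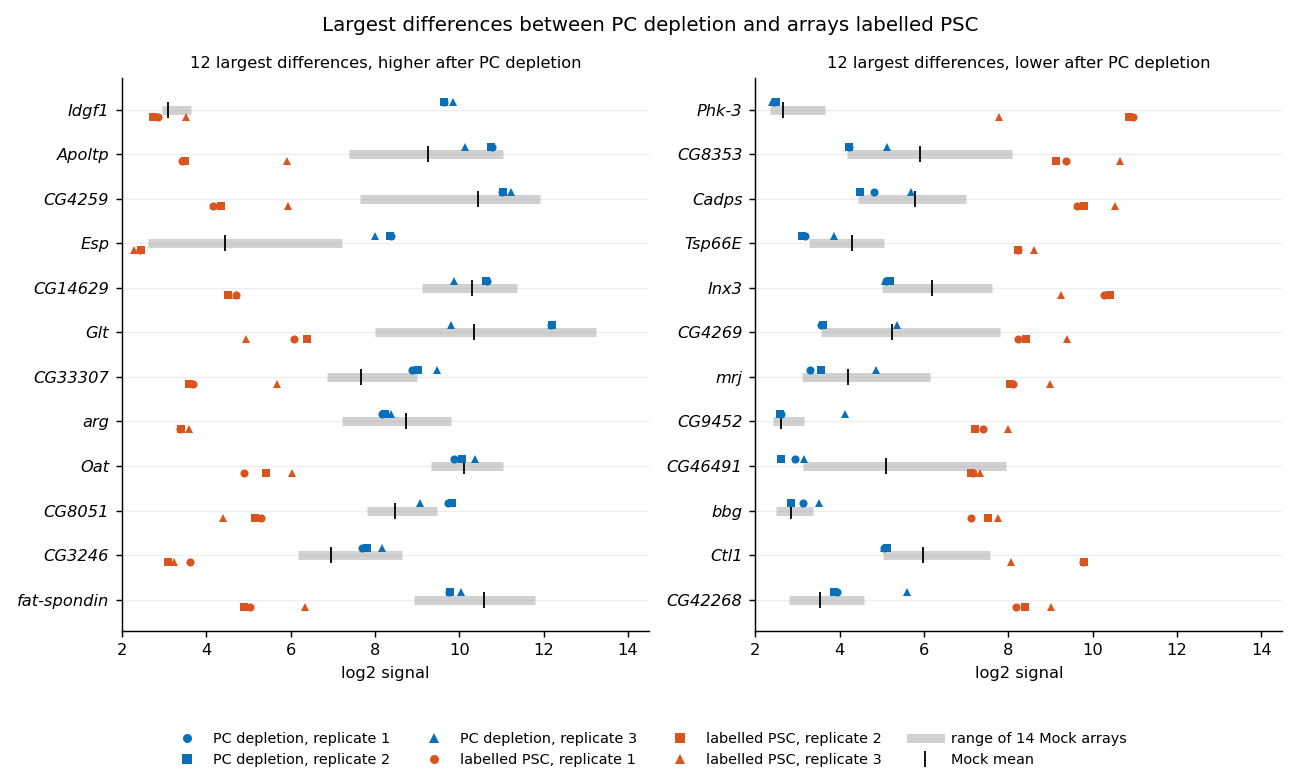
Log2 signal (horizontal axis) of the 12 genes with the largest differences in each direction, with 1 point per PC depletion array (blue) and per array labelled PSC (orange), shaped by replicate number. Grey bars give the range of the 14 Mock arrays and black ticks their mean; Idgf1 and Esp on the left lie above Mock after PC depletion, and most genes on the right lie above Mock on the arrays labelled PSC.

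The imaginal disc growth factors, chitinase-like proteins secreted by blood cells and fat body that promote growth of cultured imaginal disc cells, held 3 called genes of 6 measured, all higher after PC depletion, with a median difference of 1.73 against 0.00 over all genes. Over all genes tested 1.51% were called higher. Idgf2 stood at 10.31, 10.02 and 9.27 against 6.14, 6.12 and 5.51 and was 15.4-fold higher (log2 difference 3.94, SE 0.63, limma adjusted p = 0.000162). Idgf3 stood at 12.31, 12.34 and 11.40 against 9.59, 9.48 and 9.19 and was 6.04-fold higher (log2 difference 2.59, SE 0.57, limma adjusted p = 0.00594). In both the PC arrays lay above the whole Mock range, and the arrays labelled PSC lay inside it.

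Idgf6 was not called at 13.07, 13.17 and 12.52 against 12.35, 12.18 and 11.64 (limma adjusted p = 0.369). Idgf4, the 1 member with a negative difference (-0.53), had adjusted p = 0.0938, and Idgf5 lay close to the floor. The groups overlapped in Idgf4 and Idgf5 and did not in the other 4 members. Among all genes tested 16.7% did not overlap, and among genes with a mean above 4 (log2) 28.2% did not. With replicates 1 and 2 averaged into 1 array per group 2 members were called, and Idgf3 was not.

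Basement membrane genes encode the sheet of collagen IV, laminin and perlecan that blood cells secrete around tissues. Of 13 measured, 4 were higher after PC depletion and 2 were lower, against 1.51% and 2.42% of all genes tested. The median was 1.33. In the blocked fit of the 6 arrays 7 were higher and 1 was lower, against 4.04% and 4.1% of all genes tested in that fit. With replicates 1 and 2 averaged 0 were higher and 1 was lower. Col4a1, a collagen IV chain, stood at 11.51, 11.59 and 12.35 against 6.65, 7.29 and 9.02 and was 18-fold higher (log2 difference 4.17, SE 0.91, limma adjusted p = 0.00545). Its partner chain vkg stood at 11.30, 11.30 and 9.87 against 7.40, 7.90 and 7.34 without being called (limma adjusted p = 0.109). Both chains were separated between the groups on all 6 arrays.

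Glt, the membrane glycoprotein glutactin, stood at 12.17, 12.20 and 9.80 against 6.08, 6.40 and 4.94 (log2 difference 5.58, SE 1.17, limma adjusted p = 0.00356). SPARC, which binds collagen, stood at 12.93, 13.01 and 13.20 against 11.48, 11.49 and 12.17 (log2 difference 1.33, SE 0.32, limma adjusted p = 0.0145). For SPARC all 6 arrays lay under the whole Mock range (13.25 to 14.31), and its call was lost without PC replicate 3, PSC replicate 1 or PSC replicate 2 (up to 0.0747, without PSC replicate 2). The laminin chain LanB1 stood at 11.03, 11.13 and 10.56 against 8.52, 8.73 and 8.32 (limma adjusted p = 0.0453), a call lost with each of the 6 arrays left out in turn (up to 0.136, without PC replicate 2).

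LanB2 stood at 12.33, 12.36 and 11.36 against 10.05, 10.31 and 9.79 with no call (limma adjusted p = 0.131, blocked 0.0447), and LanA differed by 0.70 (limma adjusted p = 0.851, blocked 0.0347). All 3 laminin chains lay higher on every PC array than on every array labelled PSC.

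The list did not move as a whole. trol, the perlecan of the membrane, ran the other way at 4.43, 4.68 and 4.91 against 7.31, 7.97 and 7.28 (log2 difference -2.85, limma adjusted p = 0.0282), a call lost with each of the 6 arrays left out in turn (up to 0.114, without PSC replicate 2). The call of trol was also lost with its probe sets averaged, and its difference lay between -3.09 and -0.66 across the alternatives run. Ndg, nidogen, was called at a difference of -0.04 at the floor (blocked 0.349), lost with any single array but PSC replicate 1 left out (up to 0.366, without PSC replicate 2).

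Plasmatocyte and phagocytosis genes gave 3 higher and 2 lower calls among 24 measured, against 1.51% and 2.42% of all genes tested. Their median was 0.00. eater, a phagocytic receptor for bacteria, stood at 7.40, 7.74 and 8.16 on the PC arrays, inside the Mock range of 7.06 to 9.06, and at 2.56, 2.91 and 4.59 on the arrays labelled PSC. It was 21.3-fold higher after PC depletion (log2 difference 4.42, SE 0.64, limma adjusted p = 4.57e-05). Hml, hemolectin, stood at 4.82, 4.47 and 5.33 against 3.47, 3.86 and 4.33 (log2 difference 0.99, limma adjusted p = 0.000789), with no call in the blocked fit of the 6 arrays (adjusted p = 0.112).

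Other surface proteins of plasmatocytes were separated but not called. He, hemese, stood at 7.35, 7.23 and 8.96 against 2.86, 3.29 and 4.76 (limma adjusted p = 0.109, blocked 0.0280). Sr-CI, a scavenger receptor, stood at 5.61, 5.48 and 6.01 against 2.52, 2.27 and 2.54 (limma adjusted p = 0.0744, blocked 0.0280). Pxn, the matrix peroxidase peroxidasin, stood at 9.16, 9.23 and 9.34 against 6.81, 7.15 and 7.31 (limma adjusted p = 0.494, blocked 0.0285). In these 3 genes every PC array lay above every array labelled PSC, and the Mock arrays, which enter the estimate of spread, ranged from 3.66 to 9.06 for He, from 3.75 to 8.82 for Sr-CI and from 6.31 to 11.45 for Pxn.

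Tep4, a thioester protein of the complement-like family, went the other way at 8.88, 8.83 and 9.81 against 11.12, 11.48 and 11.91 (log2 difference -2.33, limma adjusted p = 0.00112), and crq, a receptor for apoptotic cells, lay at 8.36 to 10.15 against 9.56 to 10.99 (limma adjusted p = 0.400, blocked 0.0449). The calls of NimC1 (0.33, blocked adjusted p = 0.325) and Sr-CII (-0.24, blocked 0.305) were small differences near the floor. That of NimC1 was lost with any single array but PC replicate 2 left out (up to 0.244 by limma, without PC replicate 3), and that of Sr-CII without PSC replicate 1 or 2 (up to 0.115, without PSC replicate 1). The log2 signals of the 7 plasmatocyte markers summed to 44.9 to 50.8 on the PC arrays and to 30.4 to 36.8 on the arrays labelled PSC. Fewer cells of a type and less RNA per cell cannot be told apart in such bulk samples, and the part of either was not tested.

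**Figure D3:**
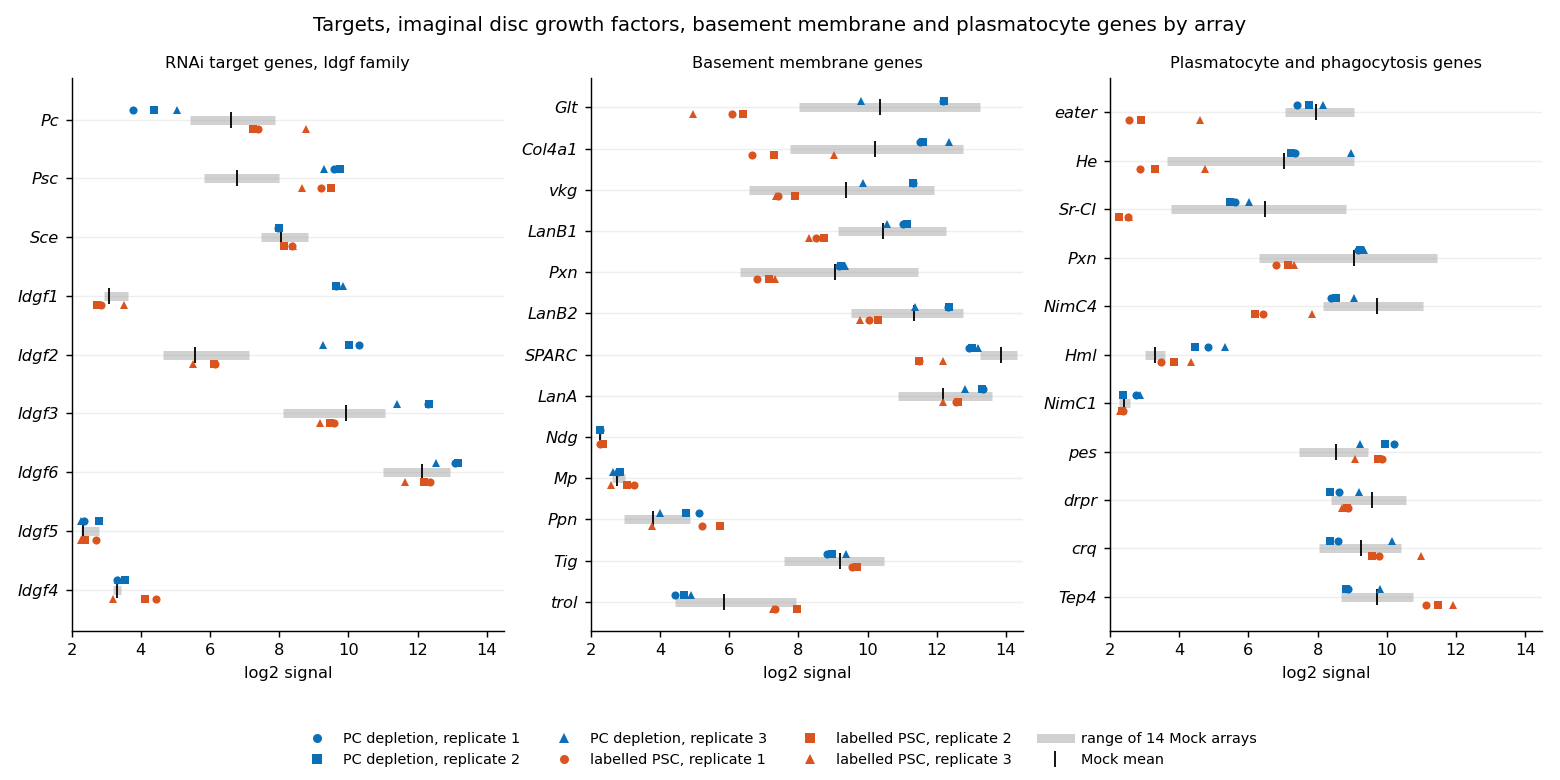
Log2 signal (horizontal axis) on each PC depletion array (blue) and each array labelled PSC (orange) for the RNAi target genes and Idgf family (left), basement membrane genes (middle) and plasmatocyte and phagocytosis genes (right), with the Mock range in grey and its mean as a tick. Idgf1, Idgf2, Col4a1 and eater are separated between the groups, and trol and Tep4 run the other way.

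Homeobox genes, among them classical Polycomb targets, were mostly silent in both groups: of 57 measured, 17 lay at the floor on all 6 arrays and 6 had any array above 4. cad, the caudal homeodomain protein of posterior and gut development, stood at 6.36, 6.02 and 5.71 after PC depletion, while all arrays labelled PSC (2.27 to 2.30) and all Mock arrays (up to 2.32) lay at the floor. cad was at least 13.4-fold higher (log2 difference 3.74, SE 0.37, limma adjusted p = 1.19e-07). so, the sine oculis homeodomain protein of eye development, stood at 3.71, 3.12 and 2.67 against 2.27 to 2.30 (at least 1.83-fold, limma adjusted p = 0.00102), with no call in the blocked fit of the 6 arrays (adjusted p = 0.188).

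ap, the LIM-homeodomain protein apterous of wing and neuron identity, was active on all arrays and differed the other way. It stood at 10.17, 10.18 and 11.33 after PC depletion, around the Mock mean of 10.19, and at 12.25, 12.46 and 13.01 on the arrays labelled PSC (log2 difference -2.01, SE 0.35, limma adjusted p = 0.000427). Of 64 other developmental regulators 1 was called, GATAe, against 2.42% of all genes tested called lower. GATAe differed by -0.30 near the floor (blocked adjusted p = 0.398) and lost its call with any single array but PSC replicate 3 left out (up to 0.226, without PSC replicate 2).

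peb, the zinc finger protein hindsight, was the 1 called gene of 15 regulators of blood cell lineages, against 1.51% of all genes tested called higher. It stood at 3.11, 3.43 and 3.04 against 2.29 to 2.32 (at least 1.86-fold higher, limma adjusted p = 4.59e-05, blocked 0.0558). Trl, the GAGA factor of the trithorax group, stood at 6.76, 6.91 and 7.11 against 5.86, 5.96 and 6.34 (log2 difference 0.87, limma adjusted p = 0.0147). Its call was lost without PC replicate 3, PSC replicate 1 or PSC replicate 2 (up to 0.0807, without PSC replicate 1) and with deposited values. The other 14 measured trithorax genes were not called, and the median of the list was -0.48. The blocked fit of the 6 arrays called 1 higher and 4 lower, against 4.04% and 4.1% of all genes tested in that fit.

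The Notch list held 3 called genes of 13, all lower after PC depletion (against 2.42% of all genes tested), with a median of -0.34. numb, an inhibitor of Notch that is handed to 1 daughter in asymmetric divisions, stood at 6.67, 6.50 and 7.58 against 10.22, 10.23 and 10.21 and was 9.88-fold lower (log2 difference -3.30, SE 0.28, limma adjusted p = 7.12e-09). fng, the glycosyltransferase that alters the ligand choice of Notch, lay at the floor on the PC arrays (2.28 to 2.33) and at 3.93, 3.96 and 3.94 on the arrays labelled PSC, at least 3.1-fold apart (limma adjusted p = 6.43e-21). Its SE of 0.04 draws on Mock (SD 0.05) and PC arrays (SD 0.02) at or near the floor. Its adjusted p is therefore not to be ranked against those of brighter genes. In both genes the groups lay wholly apart, and fng on the PC arrays lay at its Mock level.

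Psn, the catalytic subunit of gamma-secretase, which releases the intracellular part of Notch, stood at 8.20, 8.27 and 9.68 against 10.14, 9.98 and 11.31 (log2 difference -1.76, limma adjusted p = 0.0131). Against Mock, Psn differed by -1.54 on the PC arrays (limma adjusted p = 0.00626) and by 0.22 on the arrays labelled PSC. Its call was lost without PC replicate 1, PC replicate 2 or PSC replicate 3 (up to 0.107, without PSC replicate 3). The named members act in different senses in the pathway, an inhibitor, a modifier and a protease.

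Lipid carriers and their receptors were called in both directions, 1 higher and 2 lower of 9, against 1.51% and 2.42% of all genes tested. LpR2, a lipophorin receptor, stood at 3.88, 3.08 and 3.54 after PC depletion and at 6.89, 7.06 and 7.04 on the arrays labelled PSC, 11.3-fold apart (log2 difference -3.50, SE 0.18, limma adjusted p = 3e-13). Its Mock arrays (2.28 to 2.98) lay under every array of both groups. Npc2b, a sterol-binding protein, stood at 5.73, 5.57 and 6.75 against 10.14, 10.06 and 8.66 (log2 difference -3.60, limma adjusted p = 0.000212, blocked 0.112). Apoltp, described above, was the higher member, so its direction was opposite to that of the receptor.

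Among 14 enzymes of amino acid and polyamine metabolism 2 were higher and 1 was lower, against 1.51% and 2.42% of all genes tested. Besides arg, Argk1, the arginine kinase that stores phosphate, stood at 10.67, 10.82 and 11.41 against 7.33, 7.36 and 8.50 (log2 difference 3.24, SE 0.42, limma adjusted p = 1.02e-05). The 2 glutamine synthetases differed in opposite directions. Gs2 stood at 5.03, 5.11 and 5.60 against 9.13, 9.10 and 7.64 (log2 difference -3.38, limma adjusted p = 0.000373, blocked 0.0882). Gs1 stood at 9.66, 9.73 and 11.35 against 7.71, 7.67 and 9.30, which was not called (limma adjusted p = 0.0613, blocked 0.0280).

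In a list of glutamate and sugar carriers 19 transporters were measured. Of these, 4 were higher after PC depletion and 0 were lower, against 1.51% and 2.42% of all genes tested. The 4 higher genes included Esp, described above, and Prip, a channel of the aquaporin family, so part of the list's calls are not sugar or glutamate carriers. Prip stood at 5.91, 5.86 and 7.06 against 2.89, 2.90 and 3.36, with a Mock mean of 3.07 (log2 difference 3.23, SE 0.30, limma adjusted p = 3.65e-08). The trehalose transporter Tret1-1 stood at 9.32, 9.46 and 9.66 against 7.42, 7.70 and 8.03 (limma adjusted p = 0.0169), a call lost without PC replicate 2 or 3 or PSC replicate 1 or 2 (up to 0.0789, without PSC replicate 1). Its neighbour in name Tret1-2 differed by 1.67 (limma adjusted p = 0.00175, blocked 0.175).

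Detoxification genes were split, with 2 higher and 2 lower of 33 glutathione transferases and cytochrome P450 genes. Over all genes tested 1.51% were called higher and 2.42% lower. GstE2 stood at 7.99, 8.01 and 6.95 against 3.64, 3.98 and 2.94 (log2 difference 4.13, limma adjusted p = 0.0109, and 0.0502 without PC replicate 2). GstS1 went the other way at 3.73, 3.46 and 3.94 against 7.01, 6.79 and 7.12 (log2 difference -3.26, SE 0.49, limma adjusted p = 7.24e-05), with Mock at 3.14 to 4.24. Cyp6a9 differed by -1.94 (limma adjusted p = 0.0131), lost without PC replicate 1 or 2 or PSC replicate 3 (up to 0.0935, without PSC replicate 3). Cyp18a1, an ecdysone-inactivating enzyme, was called at a difference of 0.10 at the floor (blocked adjusted p = 0.351) and lost its call with any single array but PC replicate 1 left out (up to 0.393, without PC replicate 2).

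In the germ line and piRNA list 3 of 22 genes were lower after PC depletion, against 2.42% of all genes tested, and 0 were higher. cuff, a factor for transcription of piRNA clusters, stood at 3.26, 2.84 and 2.69 against 5.92, 5.91 and 5.29 (log2 difference -2.78, SE 0.46, limma adjusted p = 0.000234). AGO3, a Piwi-family protein, stood at 2.31, 2.27 and 2.71 against 3.80, 3.85 and 3.29 (log2 difference -1.22, limma adjusted p = 9.14e-07, blocked 0.132). aub, its partner in piRNA amplification, stood at 6.36, 6.69 and 6.23 against 8.37, 8.40 and 7.77 (log2 difference -1.75, limma adjusted p = 0.0400). Against Mock, aub differed by -1.74 on the PC arrays (limma adjusted p = 0.00739) and by 0.01 on the arrays labelled PSC. cuff and AGO3 differed from Mock by -0.57 and 0.09 on the PC arrays and by 2.2 and 1.31 on the arrays labelled PSC. The call of aub was lost with any single array but PSC replicate 3 left out (up to 0.133, without PSC replicate 2). The defining germ line genes vas and osk lay at the floor on all 6 arrays, and bam, also a germ line marker, stood at 3.78, 3.97 and 4.00 against 3.36, 3.51 and 3.28 and was not called.

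Single genes were called in several other lists, against 1.51% of all genes tested called higher and 2.42% lower. For E23, egr and msn the lists held 16 ecdysone response, 14 apoptosis and 10 crystal cell and lamellocyte genes. E23, an ecdysone-induced ABC transporter, stood at 6.09, 5.72 and 6.46 against 3.79, 3.70 and 3.82 (log2 difference 2.32, limma adjusted p = 0.00149), above all Mock arrays (2.72 to 4.36). egr, the TNF ligand eiger, stood at 10.13, 10.17 and 9.69 against 6.99, 7.43 and 6.90 (log2 difference 2.89, limma adjusted p = 0.0112), with the PC arrays inside the Mock range. msn, a Ste20-family kinase gene used to mark lamellocytes, differed by 2.01 (limma adjusted p = 0.0140, blocked 0.0599). Its call was lost without PC replicate 1 or 2 or PSC replicate 3 (up to 0.0856, without PC replicate 1).

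AttD, an attacin-type antimicrobial peptide gene, stood at 3.01, 3.05 and 2.65 against 5.76, 5.68 and 6.28 (log2 difference -3.0, limma adjusted p = 0.000281). It was the 1 called gene of 8 peptide genes, against 2.42% of all genes tested called lower. stv, the co-chaperone starvin, stood at 2.38, 2.33 and 2.51 against 5.08, 5.28 and 4.13 (log2 difference -2.42, limma adjusted p = 1.13e-05, blocked 0.0709). It was the 1 called gene of 11 in the heat shock protein list. The adhesion protein Nrg stood at 5.85, 5.40 and 5.21 against 8.24, 8.60 and 7.30 (limma adjusted p = 0.0255, blocked 0.0538), a call lost without PC replicate 2 or 3 or PSC replicate 1 or 2 (up to 0.120, without PSC replicate 2).

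**Figure D4:**
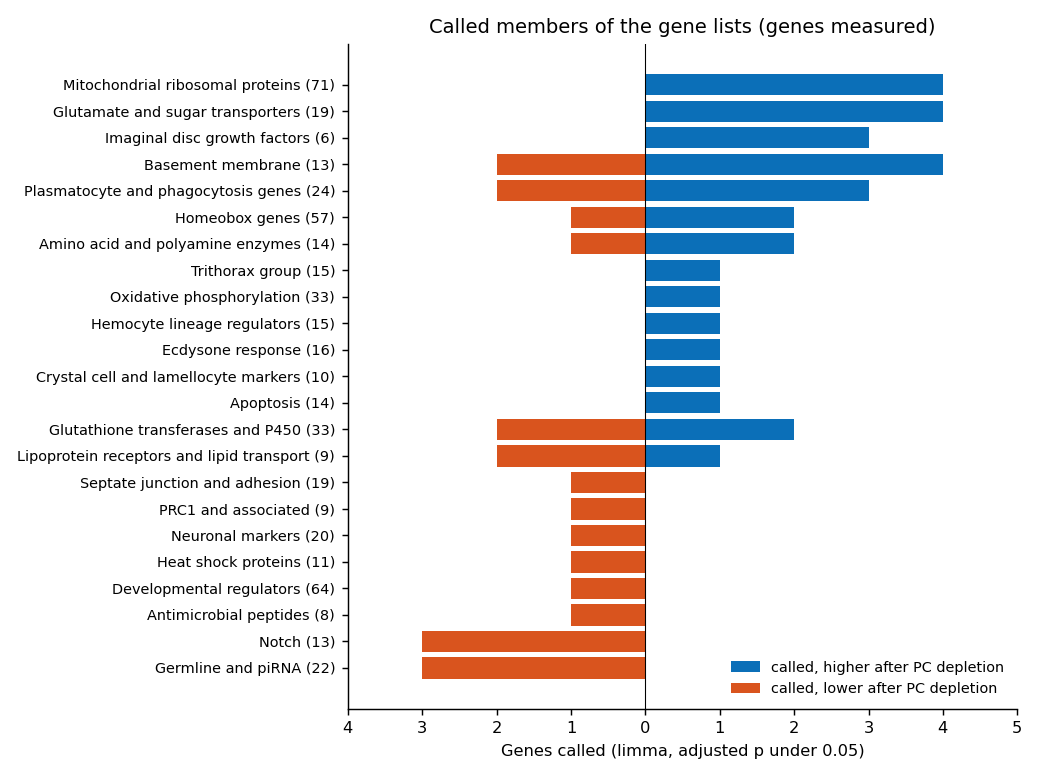
Number of genes called by limma in each gene list with a call, higher (blue, to the right) or lower (orange, to the left) after PC depletion than on the arrays labelled PSC, with the number of genes measured in brackets. The Idgf list holds 3 higher calls of 6 genes, and the Notch and piRNA lists hold 3 lower calls each. Over all genes tested 1.51% were called higher and 2.42% lower.

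Mitochondrial ribosomal protein genes, which translate the few proteins encoded in the organelle, held 4 called genes of 71 measured, all higher after PC depletion. Over all genes tested 1.51% were called higher. Of the 71, 68 had positive differences, with values from -0.11 to 1.86 and a median of 0.73, against 50.7% positive of the 5537 genes with a mean above 4. The 3 PC arrays lay wholly apart from the 3 arrays labelled PSC in 28 of the 71 genes (39.4%, against 28.2% of the same 5537). The blocked fit of the 6 arrays called 21 higher and 0 lower, against 4.04% and 4.1% of all genes tested in that fit.

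mRpL43 stood at 7.84, 7.80 and 7.72 against 6.30, 6.01 and 5.47 (log2 difference 1.86, SE 0.36, limma adjusted p = 0.00178), with the PC arrays near the Mock mean of 7.98. mRpS33 differed by 1.19 (limma adjusted p = 0.0339, blocked 0.0578), a call lost with any single array but PSC replicate 3 left out (up to 0.153, without PSC replicate 2). mRpL44 differed by 1.01 (limma adjusted p = 0.0194, blocked 0.0516), lost without PC replicate 1 or 2 or PSC replicate 2 or 3 (up to 0.105, without PSC replicate 2). mRpS30 differed by 0.77 (limma adjusted p = 0.0395), lost with each of the 6 arrays left out in turn (up to 0.123, without PC replicate 2). With median-centred arrays 0 of the 71 were called, and the median was 0.77.

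Oxidative phosphorylation genes of the respiratory chain and ATP synthase held 1 call of 33, higher after PC depletion, against 1.51% of all genes tested. Of the 33, 32 had positive differences, with a median of 0.51. The call was ATPsyndelta, at 12.03, 11.87 and 11.56 against 11.30, 10.76 and 10.84 (log2 difference 0.86, SE 0.20, limma adjusted p = 0.00973). It was lost without PC replicate 1 or PSC replicate 2 (up to 0.0661, without PSC replicate 2). The blocked fit of the 6 arrays called 8 genes of the list higher, against 4.04% of all genes tested, but not ATPsyndelta (adjusted p = 0.0606). Cytosolic ribosomal protein genes had a median difference of -0.06 over 28 genes, 0 calls by limma and 2 at an unadjusted p under 0.05.

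All 10 glycolytic genes measured had negative differences, with a median of -0.37. Limma called 0 of them, with 2 at an unadjusted p under 0.05. The blocked fit of the 6 arrays called 2 lower, against 4.1% of all genes tested in that fit. Pfk, phosphofructokinase, stood at 5.87, 6.01 and 6.31 against 7.10, 7.22 and 7.29 (limma adjusted p = 0.0868, blocked 0.0362). The brightest members were not called: Eno, enolase, stood at 12.48, 12.46 and 13.09 against 12.62, 12.77 and 13.28 (difference -0.21, limma adjusted p = 1.0). Ald1, an aldolase, stood at 11.20, 10.93 and 11.27 against 11.95, 12.02 and 11.89 (difference -0.82, limma adjusted p = 0.449, blocked 0.0717). Hex-A, a hexokinase, stood at 9.01, 9.01 and 9.30 against 10.90, 10.91 and 10.23 (limma adjusted p = 0.374). Pfk and Hex-A were chosen after their values were seen. Septate junction and adhesion genes had a median of -0.62 with 1 of 19 called, Nrg, against 2.42% of all genes tested called lower. The blocked fit of the 6 arrays called 4 of them lower, again against 4.1% of all genes.

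Gene length, taken as genomic span with introns, moved with these differences. Over the 1381 shortest genes with a mean above 4 the median difference was 0.19 and 65.4% lay higher after PC depletion, and over the 1380 longest it was -0.22 and 37.0%. Across 5519 genes, which are no independent replicates and share the same 6 arrays, Spearman's rho between length and difference was -0.254. It was -0.225, -0.336 and -0.139 for numbered pairs 1, 2 and 3. Mitochondrial ribosomal genes have a median length of 910 bases, oxidative phosphorylation genes of 1336, and septate junction and adhesion genes of 8381. The part of length in the differences of these lists was not tested.

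**Figure D5:**
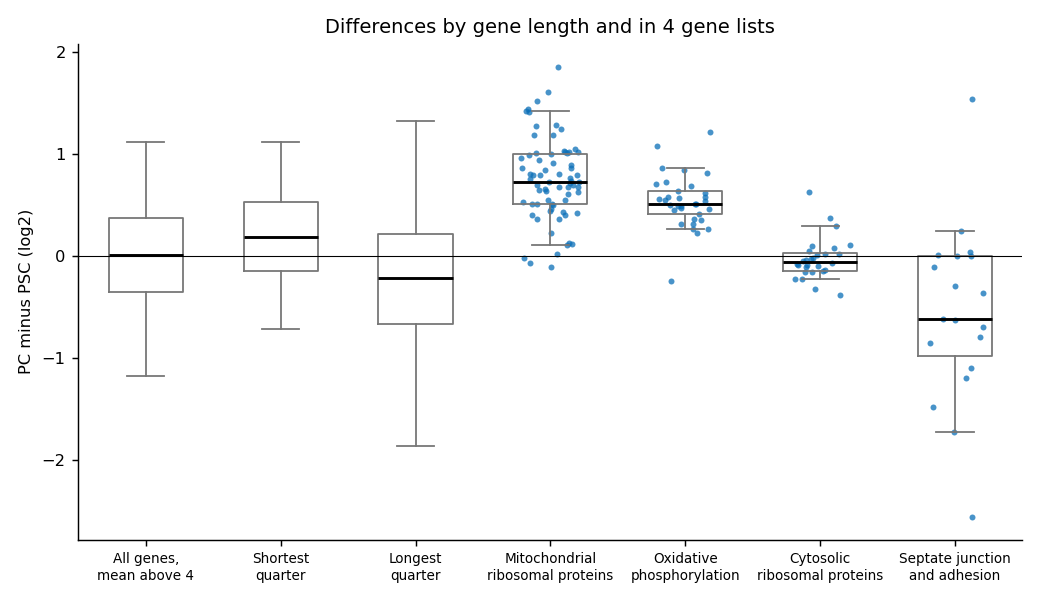
Log2 difference, PC depletion minus arrays labelled PSC (vertical axis), for genes with a mean above 4, for the 1381 shortest and 1380 longest of them by genomic span, and for 4 gene lists. Boxes span the 25th to the 75th percentile, whiskers the 5th to the 95th percentile, thick lines are medians and points are genes; medians are 0.73 for mitochondrial ribosomal proteins, 0.51 for oxidative phosphorylation and -0.06 for cytosolic ribosomal proteins.

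Of the 40 gene lists 23 held a call and 17 held none, and of the 768 genes in them limma called 31 higher and 22 lower, against 1.51% and 2.42% of all genes tested. In the 17 lists with 0 calls, 0 to 5 members had an unadjusted p under 0.05, and the medians lay between -0.43 (autophagy) and 0.16 (mitosis). Of 28 genes of DNA replication 0 were called, with 3 at an unadjusted p under 0.05 and a median of 0.15, and of 22 mitotic genes 0 were called, with 4 and 0.16. The blocked fit of the 6 arrays called 4 higher in each of these lists, while it called 4.04% of all genes tested higher and 4.1% lower. PCNA, the sliding clamp of DNA replication, lay at 10.99 to 11.72 against 10.98 to 11.76, and CycB, a mitotic cyclin, at 10.59 to 10.87 against 10.50 to 10.80. Both groups overlapped in these genes. Of 25 proteasome genes 0 were called, with 0 at an unadjusted p under 0.05, and of 26 genes of Imd and Toll signalling 0, with 4 (blocked, 1 higher and 4 lower). The remaining lists with 0 calls hold histone demethylases, muscle and fat body markers, JAK/STAT and insulin signalling, RNA interference factors, chaperonins and aminoacyl-tRNA synthetases. None of the genes named next was called. Among histone demethylases NO66 differed by 0.52, and among PRC2 genes Jarid2 differed by -0.58. The NF-kappa-B factor Rel differed by -0.57, the transcription factor Stat92E of the JAK/STAT pathway by -0.23 and the cap-binding protein eIF4E1 by -0.35. Prosbeta4, a proteasome subunit, differed by 0.22, the chaperonin subunit CCT5 by -0.14 and the ribosomal protein RpL15 by -0.15. The autophagy genes Atg8a and ref(2)P differed by -0.58 and -0.45, AsnRS, an aminoacyl-tRNA synthetase, by -0.33, and Fbp2, a fat body gene, by -0.25 near the floor.

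Of 6 Toll family receptors limma called 0, with 1 at an unadjusted p under 0.05. The receptor gene 18w stood at 9.73, 9.79 and 9.46 against 9.93, 10.09 and 9.40, and all 6 arrays lay above its Mock range of 5.32 to 7.52. Tollo stood at 10.15, 10.00 and 9.86 against 8.60, 9.04 and 8.81, again above its whole Mock range (5.74 to 8.30), and its difference of 1.19 was not called (limma adjusted p = 0.355).

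Whether a second probe set of a gene gave the same answer was examined for the 58 called genes that had one. Of their 82 other probe sets 9 were called in the same direction, 0 in the opposite direction, and 73 were not called, of which 19 lay at the floor on all 6 arrays. Of the 1664 other probe sets of all genes 24 were called.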

How the data were processed

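Total RNA from S2 cells (7 micrograms per one-cycle labelling, RNA integrity numbers above 8, per the labels' protocols) was measured on 29 arrays. The deposited values are log2 signals, 1 per probe set and array. Per the submitters' processing notes RMA and GCRMA were used, with no version, order or role given. The lowest deposited value was 2.27 on every array, and 36.4% of member values on the 6 arrays lay there, so falls to it are understated.

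Of 18769 non-control probe sets, 402 named several genes and 4720 none. Gene numbers tied 13544 of the 13647 members to the RefSeq annotation (Release 6 plus ISO1 MT), and older symbols were kept for 103. A gene's brightest probe set by mean signal stood for it, which gave 11983 genes. Genes never above the floor (305) were dropped, and 2040 of the 11678 tested did not leave it on the 6 arrays. Gene length is the genomic span.

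Because medians of the arrays ran from 2.271 to 2.471, over 0.1 apart, quantile normalization was applied. Limma 3.58.1 under R 4.3.3 estimated 6 group means from the 29 arrays, using eBayes with a trend. The contrast PC minus PSC was tested two-sided, adjusted by Benjamini-Hochberg over every gene tested, and called at an adjusted p under 0.05. A group within 0.1 of the floor counts as lying there. Groups at the floor vary little and enter the pooled spread, which lowers the SE and p of such genes. The 3 arrays per group limit the precision. On simulated data with 11678 genes, limma called 17 of 100 genes changed by 1 (log2), 75 of 100 changed by 2 and 5 of 11478 unchanged. The simulated noise was independent from array to array, whereas same-numbered real arrays deviated together. Changed genes were drawn from the middle of the signal range. These counts therefore do not give the error rates of the real comparison.

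Same-numbered PC and PSC arrays deviated together from their group means (r = 0.829, 0.787 and 0.887 over 5770 probe sets above 4 on at least 15 arrays), so the numbers in the labels were taken to pair the arrays. Replicates 1 and 2 were not told apart by this, at 0.777 and 0.816 crosswise. Blocked values beside results come from limma on the 6 arrays with the replicate number as a block, adjusted likewise.

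The members, the 40 gene lists and the alternatives were chosen with earlier results of these data known. The rule for named genes covers the 3 RNAi targets, the 12 largest differences each way among called genes with groups that do not overlap, and up to 4 called members per list, or the 2 brightest members of a list with no call, some of which appear only beside the alternatives. SPARC, He, Sr-CI, Pxn, crq, Idgf4, Idgf5, Idgf6, vkg, LanA, LanB2, Gs1, Pfk, Hex-A, Ndg and Sr-CII were added after their values were seen.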

Additional observations from a re-analysis of the deposited data

How the results depend on the processing

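The count of 459 called genes (176 higher, 283 lower) moved most with the replicate block. It was 951 (472 higher, 479 lower) with the replicate block in the 6 arrays, 1009 (467 and 542) in 18 arrays with Mock 1 to 3 and all depletions, against 693 (301 and 392) in the same 18 without the block, and 2225 (1176 and 1049) in 12 arrays with Mock 1 to 3, dRING, PC and PSC, against 962 (485 and 477) in the same 12 without it. The fits of 12 arrays were chosen after seeing the data. Of the 459 genes, 246, 395 and 388 kept their call and direction under the block in 6, 18 and 12 arrays. In the 6 arrays alone without a block 215 did, the lowest count of the alternatives. Pc, ap, Col4a1, Hml, Npc2b and AGO3 were among the genes that lost their call there. With replicates 1 and 2 averaged 256 genes were called (102 higher, 154 lower). Leaving out 1 array or 1 numbered pair gave 250 to 480 genes, 100 to 179 higher and 150 to 306 lower, and 268 of the 459 were called with each of the 6 arrays left out. The share of higher calls, 38.3%, was 49.4% with the 6 arrays alone without a block (197 higher, 202 lower), 49.6% with their block and 52.9% with the block in 12 arrays. Deposited values gave 424 calls and median centring 400, of which 373 and 354 were among the 459 in the same direction. With the probe sets of each gene averaged 444 genes were called, 441 of them among the 459 in the same direction. The calls of trol, egr and Cyp18a1 were lost there. Across the alternatives run the smallest differences were -2.49 for Cadps (main fit -4.99), -2.18 for bbg (-4.29), -1.37 for CG42268 (-4.06) and 1.61 for Prip (3.23). These genes kept their calls, at differences well under those of the main fit. Of 68 called genes covered by the naming rule 0 changed direction under the alternatives run, and of 36 uncalled ones 12 did, none with a difference over 0.36. With median centring Caf1-55 (-0.09) became 0.0, Kdm5 (0.0) 0.07, Act88F (0.0) 0.0 and Prosbeta5 (-0.07) 0.01. With deposited values Kdm5 became 0.07, Act88F -0.01 and Prosbeta5 0.0, and with replicates 1 and 2 averaged Kdm5 became 0.02. Values printed as 0.0 had opposite signs before rounding. Leaving out arrays gave -0.51 to 0.39 for Caf1-55, -0.39 to 0.32 for Kdm5, -0.02 to 0.18 for Tm2, -0.01 to 0.03 for Act88F, -0.01 to 0.02 for Fbp1 and -0.29 to 0.08 for RpLP1. It gave -0.22 to 0.24 for PCNA, -0.19 to 0.95 for RnrL, -0.03 to 0.14 for CycB, -0.22 to 0.15 for Prosbeta5, -0.09 to 0.76 for ImpL2 and -0.27 to 0.08 for CCT2. The block in the 6 arrays ended 19 of the 68 calls, each given with its blocked value, and added calls for 6 genes (spz, ncd, dome, Tudor-SN, trsn and AlaRS). The cause of these shifts was not tested. Signals at the floor limit all dim genes: 102 called genes had the PC group there and 24 the PSC group.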

Other observations

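Among the 459 called genes, the difference within numbered pair 3 was the smallest of the 3 for 295 and the largest for 97. The median size was 1.67, 1.74 and 1.46 (log2) in pairs 1, 2 and 3. In 420 of the 459 all 3 pairs had the same sign. The genes were called on these same arrays, which favours a shared sign, and the shares over all genes tested are not given here. Replicates 1 and 2 correlated at 0.999 for PC and 0.998 for PSC, so pair 3 was the likeliest to be an extreme of the 3.

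Called genes were spread unevenly over gene length. Of the 1381 shortest genes with a mean above 4, 24 were called higher and 13 lower after PC depletion, and of the 1380 longest 45 were called higher and 94 lower.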
